A study of Mus musculus with 2 samples.

Results

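The genes of the mouse major histocompatibility complex (MHC) and of antigen processing were compared between Lamtor1 knockdown and control cells of RAW264.7, a macrophage-like mouse cell line. The set was chosen by name. It holds every array probe whose gene name begins with H2-, together with Tap1, Tap2, Tapbp, Tapbpl, B2m, Cd74, Ciita, Nlrc5, Psmb8, Psmb9, Psmb10, Psme1, Psme2, Erap1 and Ifi30. This gave 57 genes on 69 probes, 42 of them H2- genes, among 22804 genes on the array. The Lamtor1 knockdown cells had been infected with a lentiviral mixture of 2 short hairpin vectors against Lamtor1 and then put through limiting dilution. The control cells carry the genotype label control, and the same protocol text stands beside them, and the sources used here do not give what they received, nor whether either culture was a single clone. Each group has 1 array, hybridised with Cy3-labelled RNA, so every difference below describes these 2 arrays, has no replicate check and carries no p-value.

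MHC class I molecules are a heavy chain paired with beta-2 microglobulin, and they show peptides from the cytosol to CD8 T cells. The peptides are cut by the proteasome, whose catalytic subunits can be exchanged for interferon-induced ones, carried into the endoplasmic reticulum by the TAP transporter and loaded with the help of tapasin. MHC class II molecules are pairs of alpha and beta chains that show peptides from endosomes and lysosomes to CD4 T cells. They travel with the invariant chain Cd74, and the H2-DM proteins exchange its remnant for a peptide in the lysosome, the organelle on which Lamtor1 anchors Ragulator. In macrophages both routes are raised by interferon gamma, class II through the transactivator Ciita and class I through Nlrc5. RAW264.7 cells come from the BALB/c strain, whose H2 alleles differ from those of C57BL/6, the strain of the reference genome. How well each probe matches the alleles of this line was not tested.

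A level is the log2 of a signal after division by the 75th percentile of its array, and a difference is the knockdown level minus the control level. A gene takes the value of its brightest probe and counts as measured where that probe was well above background by the scanner's flag on at least 1 array. Of the 57 genes 38 were measured, 37 of them on both arrays. The probes of the other 19 that the gene names select were not well above background on either array. They are Ciita, H2-Aa, H2-DMb2, H2-Ea, H2-Eb2, H2-Ob, H2-Q1, H2-T3, H2-T3-like, H2-T18, H2-Tw3, H2-M1, H2-M5, H2-M9, H2-M10.1, H2-M10.2, H2-M10.3, H2-M10.4 and H2-M10.6.

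As a check of the label, Lamtor1 had a level of -0.43 on the knockdown array and 4.10 on the control array, a difference of -4.53. The scanner marked 22745 of 43020 spots (52.9%) as well above background in the knockdown and 22929 (53.3%) in the control. No spot was saturated. Of 10 macrophage markers 9 were measured, and Mertk was not above background on either array. Their summed signal, relative to the array's 75th percentile, was 218 in the knockdown and 317 in the control. Of the 9, 1 was at least 2-fold higher and 2 lower, against 9% and 8.35% of all measured genes. Differences were above 0 for 3 and below 0 for 6, against 54.3% of all measured genes below 0. Cd68 was at 3.73 in the knockdown and 2.50 in the control, Adgre1 at 0.97 in the knockdown and 2.53 in the control, and Fcgr1 at -5.34 in the knockdown and 0.84 in the control. Of the markers of other antigen-presenting cells, 5 of 7 for dendritic cells and 5 of 6 for B cells were not above background on either array, Cd79a, Ms4a1, Pax5 and Blk among them. The exceptions were Zbtb46 and Siglech for dendritic cells, and Cd79b, above background in the control alone. The summed signal of the dendritic cell markers was 40.3 in the knockdown and 44.6 in the control, and that of the B cell markers was 0.0384 in the knockdown and 0.0669 in the control. Siglech stood at 5.33 in the knockdown and 5.48 in the control. For T cells 2 of 5 and for fibroblasts 2 of 5 markers were measured, with summed signals for T cells of 0.805 in the knockdown against 1.04 in the control and for fibroblasts of 0.0407 in the knockdown against 0.0781 in the control. The part of other cells in the results was not tested.

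Promoter sequence is shown for some of the genes on which the results turn. Psmb9, a catalytic subunit of the immunoproteasome, and Tap1, a chain of the TAP peptide transporter, are transcribed away from each other, and both were lower in the knockdown. Classical class I heavy chain genes, here H2-K1 and H2-D1, differed little between the arrays, while the class II beta chain gene H2-Eb1 had a difference of 0.92 and the class II accessory gene H2-Oa one of -1.25. Sequences were taken from RefSeq on GRCm38.p6, a later build than the mm9 build of the array's probe positions. They end at the last base before the annotated start site and so hold no transcribed base of the gene they are named for. Capitals mark the motifs searched on both strands. These were enhancer A of class I promoters, which is the run in capitals in the H2-K1 line, the Y box (CTGATTGG), a core of the X box of class II promoters (CTAGCAAC) and the interferon-stimulated response element (GAAA, any 2 bases, then GAAA again).
Psmb9-Tap1, chr17:34187331-34187555, plus strand: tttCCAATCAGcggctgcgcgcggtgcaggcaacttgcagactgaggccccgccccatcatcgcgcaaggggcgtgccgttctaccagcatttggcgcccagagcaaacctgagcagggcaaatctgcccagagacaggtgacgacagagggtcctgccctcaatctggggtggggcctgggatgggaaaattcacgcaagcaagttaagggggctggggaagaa
H2-K1, chr17:34000348-34000527, minus strand: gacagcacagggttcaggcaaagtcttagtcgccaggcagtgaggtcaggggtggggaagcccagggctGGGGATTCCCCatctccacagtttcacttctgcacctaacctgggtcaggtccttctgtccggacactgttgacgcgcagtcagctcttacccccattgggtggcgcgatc
H2-D1, chr17:35262914-35263093, plus strand: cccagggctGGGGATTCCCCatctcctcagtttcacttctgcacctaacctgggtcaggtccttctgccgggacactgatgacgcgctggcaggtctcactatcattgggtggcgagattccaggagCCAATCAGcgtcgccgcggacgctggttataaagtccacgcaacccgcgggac
H2-Eb1, chr17:34305687-34305866, plus strand: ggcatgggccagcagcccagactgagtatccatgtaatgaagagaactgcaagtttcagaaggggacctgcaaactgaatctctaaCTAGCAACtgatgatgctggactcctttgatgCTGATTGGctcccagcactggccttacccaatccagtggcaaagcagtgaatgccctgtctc
H2-Oa, chr17:34092199-34092378, plus strand: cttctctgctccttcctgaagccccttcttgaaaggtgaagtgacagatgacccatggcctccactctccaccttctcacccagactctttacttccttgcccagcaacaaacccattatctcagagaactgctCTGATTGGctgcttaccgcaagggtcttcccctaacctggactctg

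The first of these is the whole stretch of 225 bases between the start sites of Psmb9 and Tap1, which lie 226 bases apart. The H2-K1 and H2-D1 stretches were identical at 89.2% of 120 overlapping bases when laid side by side without gaps, enhancer A included. Of the 57 genes 38 had a promoter in the RefSeq table, 25 of them measured, and motifs were counted in the 250 bases before each start site. Enhancer A stood before 3 of the 25 measured genes, H2-K1, H2-D1 and H2-Q6, against 0.0304% of all 32851 promoters of that length. Their differences ran from -0.29 to -0.07. The Y box stood before 9 of the 25, against 3.83% of all promoters, and the differences of these 9 genes ran from -1.45 for Tap1 to 0.92 for H2-Eb1. The match printed between Psmb9 and Tap1 lies in the windows of both, and each gene is counted. The X box core stood before H2-Eb1 alone among the 25, against 1.13% of all promoters. The interferon element stood before 2, B2m and H2-T23, against 2.98% of all promoters. None of these motifs stood before H2-DMa or H2-DMb1, whose promoters are not printed. They had the lowest differences of the measured class II loading genes, -3.15 and -1.54. These letter matches are a description of the windows and not sites.

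Over the 38 measured genes, 7 were at least 2-fold lower in the knockdown (18.4%), against 8.35% of all 13773 genes measured on these arrays. H2-M2 was the single gene past 2-fold in the other direction by its plain difference, against 9% of all genes. Its control signal was not well above background and the bound was at least 1.78-fold higher, so by that bound no member was 2-fold higher. The 7 lower genes were H2-DMa, H2-T24, H2-DMb1, Tap1, Psmb9, H2-Oa and Cd74. The median difference of the 38 genes was -0.30, and that of all genes was -0.05. Differences below 0 were found for 33 members, against 54.3% of all measured genes, but 6 of these, none of them over 0.09 in size, turned positive under another scaling or background correction.

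**Figure D1:**
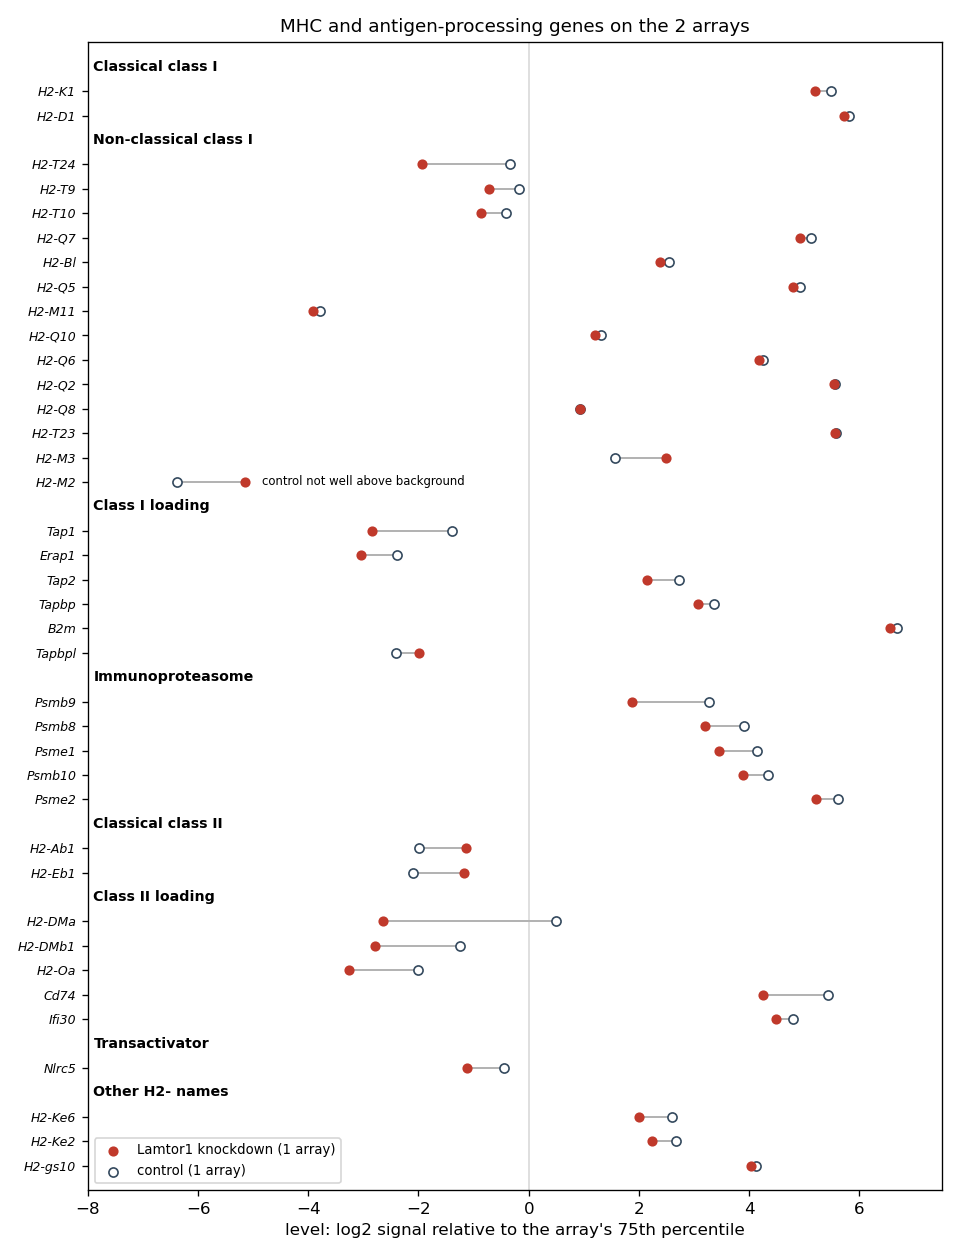
Level of each of the 38 measured genes, as log2 signal relative to the array's 75th percentile, on the Lamtor1 knockdown array (filled red) and the control array (open), 1 array each, grouped by role. Most class I heavy chain pairs overlap, while H2-DMa lies at -2.65 in the knockdown and 0.50 in the control.

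Class I heavy chains differed little between the arrays. Of 29 heavy chain names 16 were measured, and 14 of these lay within 2-fold. Of all 13773 genes measured on these arrays 11383 lay within 2-fold, so this count does not set class I apart. Their median difference was -0.11, close to the -0.05 of all genes, and it ran from -0.19 to -0.02 over all processing alternatives. The classical heavy chains, which present most cytosolic peptides, both lay within 2-fold. H2-K1 had a level of 5.19 in the knockdown and 5.48 in the control, a difference of -0.29, and its second probe gave -0.12. H2-D1 had a level of 5.72 in the knockdown and 5.81 in the control, a difference of -0.09 that was 0.01 after scaling on the array median.

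The H2-K1 probe was spotted 10 times on each array, which gives the spread of spots within an array. Its spots averaged 5.19 ± 0.03 in the knockdown and 5.48 ± 0.03 in the control (SD over 10 spots of 1 array). The lowest control spot, 5.41, lay above the highest knockdown spot, 5.22, so the difference of -0.29 exceeded the spread of spots within an array. After scaling on the array median the difference was -0.20. The spots of a group share 1 culture, 1 labelling reaction and 1 array, and say nothing of how far cultures or arrays differ.

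Among the non-classical heavy chains, which have restricted peptide or receptor partners, the 6 measured Q genes of the set lay within 2-fold by their brightest probes. H2-Q7, which encodes the Qa-2 antigen, was at 4.92 in the knockdown and 5.13 in the control. H2-Q2, H2-Q5, H2-Q6, H2-Q8 and H2-Q10 had differences of -0.02, -0.14, -0.07, -0.01 and -0.10 by their brightest probes, of which those of H2-Q2, H2-Q6 and H2-Q8 turned positive after scaling on the array median. A second H2-Q10 probe was at -4.15 in the control and not well above background in the knockdown, which bounds its log2 difference at -1.81 or lower, so the probes of H2-Q10 disagree. H2-T23, which encodes the Qa-1 antigen that engages NKG2A receptors, was at 5.56 in the knockdown and 5.57 in the control. Its difference was -0.0048, and 0.09 after scaling on the array median. A probe outside the set that RefSeq assigns to H2-Q3 was at -1.74 in the knockdown and -0.88 in the control, a difference of -0.86.

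Of the other T genes 1 was past 2-fold. H2-T24 was at -1.94 in the knockdown and -0.34 in the control, a 3.02-fold lower signal. Its second probe was at -3.54 in the knockdown and -1.95 in the control, a difference of -1.59 beside the -1.60 of the brightest probe. H2-T9 and H2-T10 had differences of -0.55 and -0.46. H2-Bl and H2-M11 had differences of -0.17 and -0.12. The probe of H2-T24 named first lies at chr17:36142640-36142699 on mm9.

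H2-M3 and H2-M2 stood on the other side. H2-M3, which presents N-formylated peptides such as those of bacteria and mitochondria, was at 2.49 in the knockdown and 1.56 in the control, 1.91-fold higher, by a probe at chr17:37411350-37411409 on mm9. Its difference of 0.94 ran from 0.89 to 1.03 over the alternatives. H2-M2 was at -5.14 in the knockdown and, not well above background, at -6.37 in the control. Its difference was 0.20 with normexp background correction.

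Genes of the class I family are near copies of each other, and the signal of a probe can hold more than 1 transcript. Among the 60-base probes of measured members, 1 pair from different genes shared a run of 20 or more bases. These were the H2-T23 probe and the second H2-K1 probe, which share 29 bases, shown here because the H2-T23 value rests on that probe.
H2-T23 bases 9 to 37 and H2-K1 bases 15 to 43 of their probes: tggagctgtggtggcttttgtgatgaaga
The H2-Q10 probe and the second H2-Q2 probe had 45 of 60 bases in common at their best ungapped match, with differences of -0.10 and -0.09. Probe sequences were compared with each other and not with transcripts, so values of single Q and T genes are uncertain as to the gene.

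Of the 11 loading and immunoproteasome genes 10 had a difference below 0, 2 were at least 2-fold lower and none was 2-fold higher, with a median of -0.58. Of all measured genes 54.3% were below 0 and 8.35% at least 2-fold lower, and their median was -0.05. The 10 negative differences kept their sign in all 9 alternatives that changed the values or the filter. B2m, the light chain of class I, was at 6.56 in the knockdown and 6.68 in the control. Its difference was -0.12.

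Tap1 was 2.73-fold lower. Its 10 spots averaged -2.84 ± 0.07 in the knockdown and -1.39 ± 0.08 in the control (SD over spots of 1 array), and the spots of the arrays did not overlap. Tap2, the partner chain of the transporter, was at 2.14 in the knockdown and 2.72 in the control, a difference of -0.58. Tapbp, the tapasin that bridges the transporter to class I, had a difference of -0.29. Erap1, the aminopeptidase that trims peptides in the endoplasmic reticulum, had a level of -3.05 in the knockdown and -2.38 in the control, a difference of -0.66. The exception was Tapbpl, a tapasin relative that edits peptides outside the loading complex, at -1.99 in the knockdown and -2.42 in the control, a difference of 0.42.

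All 5 immunoproteasome genes had differences below 0, and 1 was past 2-fold. Psmb9 was at 1.88 in the knockdown and 3.27 in the control, a 2.62-fold lower signal, close to the 2.73-fold of Tap1 from across the shared promoter printed above. The mm9 positions of the probes are chr17:34319174-34319233 for Psmb9 and chr17:34330854-34330913 for Tap1. Psmb8, the next catalytic subunit gene along the chromosome, was at 3.20 in the knockdown and 3.91 in the control, a difference of -0.71, and Psmb10, which lies on chromosome 8, had a difference of -0.45. Psme1 and Psme2 encode the PA28 activator that caps the proteasome. Psme1 averaged 3.46 ± 0.06 in the knockdown and 4.14 ± 0.04 in the control over 10 spots, a difference of -0.68, and Psme2 had a difference of -0.40.

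**Figure D2:**
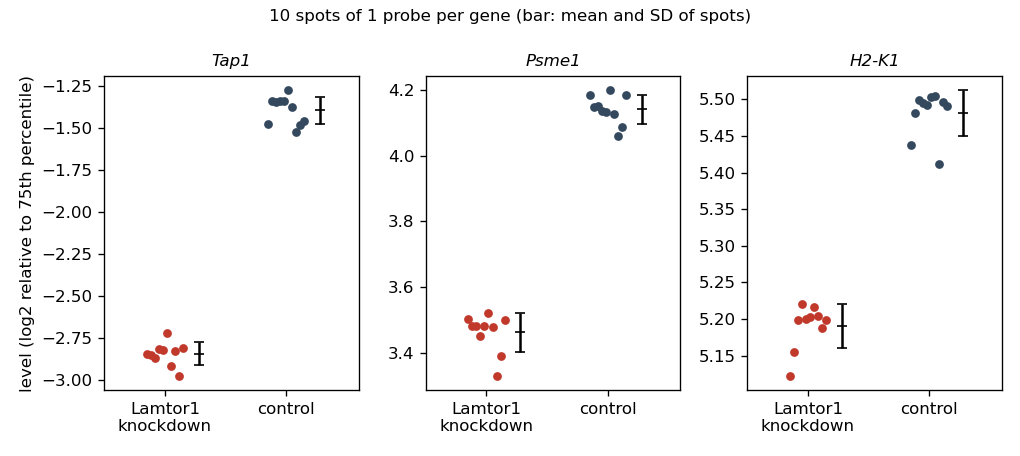
Level of each of 10 spots of the same probe for Tap1, Psme1 and H2-K1 on the Lamtor1 knockdown array (left, red) and the control array (right, dark), with the mean and SD of spots beside them. The y axes differ between panels, and in each panel all control spots lie above all knockdown spots.

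Of 6 genes of the standard proteasome, its activators and its assembly none was 2-fold lower or higher, and the median was -0.05. Among all measured genes 17.4% were past 2-fold in either direction, so few such genes would be looked for in so small a list. Psmb5, Psmb6 and Psmb7 encode the subunits that the immunoproteasome replaces. Psmb5 and Psmb7, replaced by Psmb8 and Psmb10, had differences of -0.05 and -0.07. Psmb6, replaced by Psmb9, had a difference of 0.82, against -1.39 for Psmb9. Psme3, the subunit of the nuclear PA28 activator, had a difference of 0.97. The chaperones and other peptidases of the class I route had a median of -0.06 over 10 measured genes, with none past 2-fold, against the same 17.4%. The largest differences among them were -0.61 for Thop1 and -0.50 for Blmh, both cytosolic peptidases.

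Measured class II genes differed in direction between peptide loading genes and classical chains. Of 10 class II H2- names 5 were measured, with a median of -1.25, and none lay near 0. All 3 measured genes of peptide loading were at least 2-fold lower, against 8.35% of all genes. Both measured classical chains had differences above 0 and within 2-fold. H2-DMa, the alpha chain of the protein that frees class II from the invariant chain remnant, had the lowest difference of all 38 members. It was at -2.65 in the knockdown and 0.50 in the control, 8.86-fold lower, and its difference of -3.15 was -2.78 with normexp. Its probe covers chr17:34274300-34274863 on mm9, a span longer than the probe, and was a single spot.

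H2-DMb1, the partner beta chain, was at -2.78 in the knockdown and -1.24 in the control, 2.91-fold lower. H2-Oa, a chain of the H2-O protein that restrains H2-DM, was at -3.26 in the knockdown and -2.02 in the control, 2.37-fold lower, and its difference was -0.97 with normexp, just short of 2-fold. Cd74, the invariant chain, was at 4.25 in the knockdown and 5.43 in the control, 2.25-fold lower. Ifi30, the thiol reductase that opens disulfide bonds of antigens in lysosomes, had a difference of -0.30. With H2-DMb2 and H2-Ob not above background, 4 of the 5 measured loading genes were at least 2-fold lower.

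The classical class II chains had differences above 0 that did not reach 2-fold. H2-Ab1, the beta chain of the I-A molecule, was at -1.15 in the knockdown and -2.00 in the control, a difference of 0.85. H2-Eb1, the beta chain of the I-E molecule, was at -1.18 in the knockdown and -2.11 in the control, a difference of 0.92 that was 1.02 after scaling on the array median. Both were well above background on both arrays. The probes of the partner alpha chains, H2-Aa and H2-Ea, were not above background on either array.

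**Figure D3:**
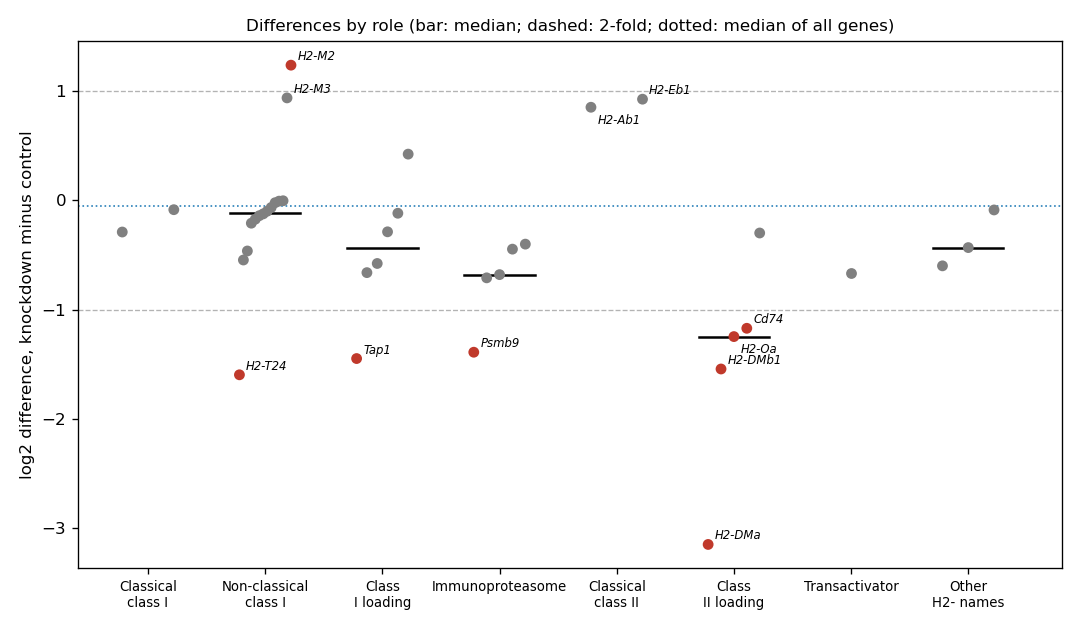
Log2 difference, knockdown minus control, of each measured gene by role, with red points for genes past 2-fold by their plain difference, black bars for the median of roles with 3 or more genes, dashed lines at 2-fold and a dotted line at the median of all genes, -0.05. Class II loading genes lie low, with H2-DMa at -3.15, while the classical class II chains H2-Ab1 and H2-Eb1 lie at 0.85 and 0.92.

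Set against each other, the class I heavy chain median of -0.11 stood 1.13 above the class II median of -1.25. This contrast depended on which genes stand for class II. With the classical chains only, H2-K1 and H2-D1 against H2-Ab1 and H2-Eb1, the class I median was -0.19, the class II median 0.89 and the contrast -1.08, the opposite direction. Genes are not replicates, so no p-value was computed for either contrast.

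**Figure D4:**
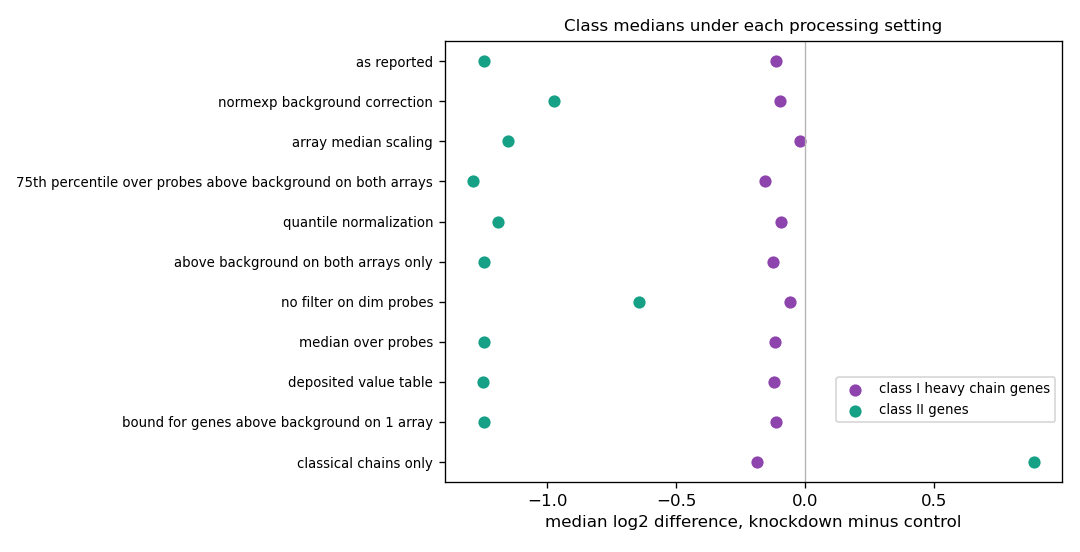
Median log2 difference, knockdown minus control, of class I heavy chain genes (purple) and class II genes (green) under each processing setting. Class I stays between -0.19 and -0.02, and class II is at 0.89 when the loading genes are left out and between -1.29 and -0.65 otherwise.

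Of the 2 transactivators only Nlrc5 was measured by the probes of the set. The Ciita probe named in the set was not above background on either array. Of 2 other probes, which RefSeq assigns to Ciita through an older gene name, 1 was above background on both arrays, at -4.28 in the knockdown and -3.80 in the control. Nlrc5 was at -1.12 in the knockdown and -0.45 in the control by its brightest probe, a difference of -0.67. Its second probe was at -3.03 in the knockdown and -3.24 in the control, a difference of 0.21, so the direction for Nlrc5 is not settled by these probes.

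Of the factors that assemble on class II promoters, 1 of 7 was past 2-fold, against 17.4% of all genes, and their median was 0.03. Nfyb, a subunit of the factor that binds the Y box, was at -2.03 in the knockdown and -1.02 in the control. Rfx5 and Rfxap, subunits of the factor that binds the X box, had differences of -0.71 and -0.73, and Creb1 of 0.36. In the route from interferon gamma, 7 of 10 genes had a difference below 0, with a median of -0.41, and 1 was at least 2-fold lower, against 54.3% and 8.35% of all genes. This was Irf9, a transcription factor of interferon signalling, at 0.42 in the knockdown and 1.97 in the control. Irf2 had a difference of -0.86 and the receptor chain Ifngr1 of -0.76.

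Around class II, the proteases that cut the invariant chain and antigens were not lower as a group. Their median was 0.86 over 7 genes, 2 of which were past 2-fold on the higher side and 1 on the lower. The shares of all measured genes were 9% and 8.35%. Ctsd was at 7.47 in the knockdown and 5.55 in the control, and Ctsb had a difference of 1.10. Ctss, the main invariant chain protease of antigen-presenting cells, had a difference of 0.92. Ctsh was at -5.22 in the knockdown and -0.12 in the control. Marchf1, the ubiquitin ligase that removes class II from the surface, was at -1.41 in the knockdown and 0.03 in the control, 2.72-fold lower, and its relative Marchf8 had a difference of 0.63.

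Class I-like genes outside the H2 cluster differed in both directions. Of 7 measured, 3 were past 2-fold higher by their plain difference and 1 lower, against 9% and 8.35% of all genes. Their median was -0.06. Fcgrt, the neonatal receptor for immunoglobulin G, was at -2.81 in the knockdown and -0.54 in the control. Mr1, which presents vitamin B metabolites, was 2.32-fold higher, and the NKG2D ligand gene Ulbp1 2.74-fold higher. Cd1d1, a presenter of lipids, was measured in the knockdown alone, at least 1.96-fold higher. Of 6 costimulatory genes 2 were past 2-fold higher and 2 lower, against the same 9% and 8.35% of all genes. Cd274, which encodes the inhibitory ligand PD-L1, was at -0.16 in the knockdown and -2.80 in the control. Pdcd1lg2, which encodes PD-L2, was likewise measured in the knockdown alone, at least 3.48-fold higher. Icosl was 5.95-fold lower, and Cd40, not well above background in the knockdown, was at least 6.70-fold lower.

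Most of the measured members lie in the H2 region of chromosome 17. The measured members H2-Oa, H2-DMa, H2-DMb1, Psmb9, Tap1, Psmb8 and Tap2 follow each other in that order, with differences from -3.15 to -0.58. The first 5 were at least 2-fold lower, and Psmb8 and Tap2 were not. Next come H2-Ab1 and H2-Eb1, at 0.85 and 0.92. For the measured class II genes, role and place along the chromosome go together and cannot be told apart. Between the outermost measured H2- probes, chr17:34076578-37618101 on mm9, 96 other genes were measured, of which 10 (10.4%) were at least 2-fold lower and 2 higher, with a median of -0.19. For the remaining 601 genes of the chromosome the counts were 48 lower (7.99%) and 38 higher, with a median of -0.09. H2-Ke2 and H2-Ke6, named for their place in the region but encoding a prefoldin subunit and a dehydrogenase, had differences of -0.43 and -0.60. H2-gs10, which RefSeq lists as H2-Q4, had a difference of -0.09 that was close to 0 after scaling on the array median.

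**Figure D5:**
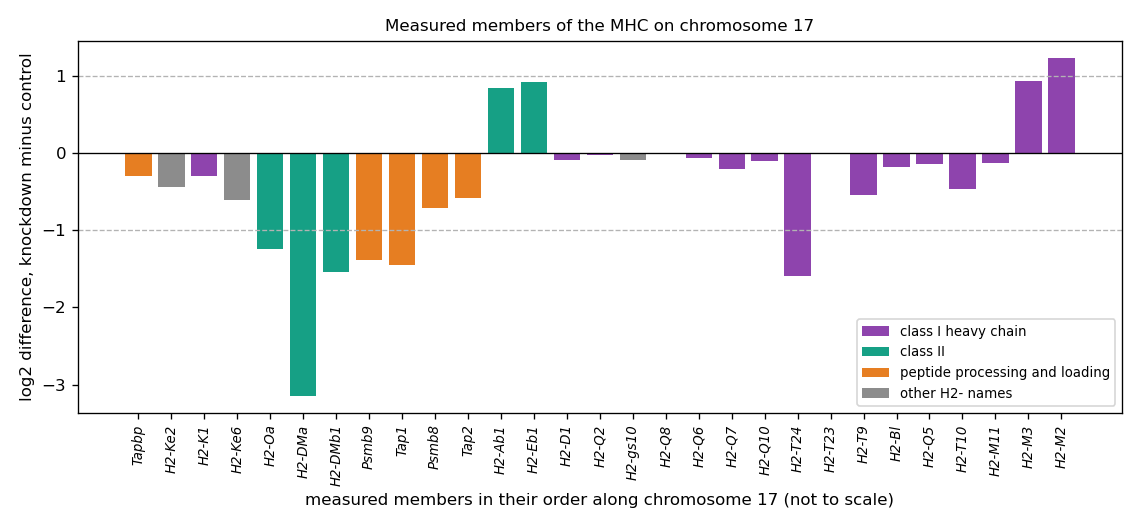
Log2 difference, knockdown minus control, of the measured members on chromosome 17 in their order along it, not to scale, by class, with dashed lines at 2-fold and the plain difference for H2-M2. The run from H2-Oa to Tap2 lies below 0, H2-Ab1 and H2-Eb1 lie above it, and most class I heavy chain bars are short.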

How the data were processed

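RNA of 1 Lamtor1 knockdown and 1 control culture was measured on 1-colour arrays. The authors deposited scanner intensity values. The submitters' processing notes name Agilent Feature Extraction 10.7.3.1 as the tool. It detrended each array's intensity and put surrogates in place of signals at background, per the file headers, which give probe positions on mm9. The deposited value table holds the same intensity, rounded.

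Outlier spots were left out (177 knockdown, 162 control). Intensity was divided by the 75th percentile of its array before log2 was taken. That percentile, over 43020 spots, was 1255 for the knockdown and 1172 for the control. Spots of a probe were averaged, and a probe needed over 50% of its spots above background to count as such. Members were taken by the file's gene name, and other genes through RefSeq on GRCm38.p6, which named 26055 of 39429 probes by accession, 3195 by symbol and 930 by an older symbol. Differences of 1 in log2 were counted. For a gene above background on 1 array, the fold is a bound against the lowest signal above background there or the probe's own, whichever was higher. No test can be made from 1 array a group, and their number limits the precision. Members and lists were chosen with earlier results of these data known. All measured members are named, as are at most 4 genes of each other list, from those with the largest differences. Alternatives were normexp (limma 3.58.1, offset 50), other scalings, filters, probe summaries and the value table. The calculation was tested on simulated data. Python 3.11.15 and R 4.3.3 were used. Some genes of the other lists are not reported here.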

Additional observations from a re-analysis of the deposited data

How the results depend on the processing

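The count of members at least 2-fold lower was 7 as reported and ran from 6 with normexp to 9 without a filter on dim probes. The count at least 2-fold higher was 1 as reported, 0 with normexp, 0 with genes above background on both arrays, 0 with bounds and 3 after scaling on the array median. With classical chains only, the class II median was 0.89 and the contrast of class I minus class II -1.08, both of opposite sign, since the H2-DM and H2-O genes drop out. Without a filter on dim probes the class II median was -0.65 and the contrast 0.59, as 10 class II genes then count in place of 5. With normexp the class II median was -0.97, the contrast 0.88 and the median of class I loading and immunoproteasome genes -0.48. After scaling on the array median, which moved the median of all genes by 0.09, these were -1.15 for class II, -0.49 for loading and immunoproteasome genes and -0.020 for class I heavy chains. Calls of single members changed for H2-M2 (0.20 with normexp, 0.83 as a bound), H2-Oa (-0.97 with normexp), H2-Eb1 (1.02) and H2-M3 (1.03) after scaling on the array median, and H2-Q10 (-1.99 as the median over its probes). Adding H2-gs10 to class I, an alternative chosen after seeing the data, gave a contrast of 1.15. Counts over all genes were 1240 higher and 1150 lower by 2-fold as reported, 789 and 613 with normexp, 793 and 693 with genes above background on both arrays, and 1657 and 1760 without a filter. No paired analysis was possible because each group has 1 array. Dim probes limit the folds of H2-M2 and of genes given as bounds.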
